A study of Homo sapiens with 40 samples.

Results

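The respiratory chain genes described here encode nuclear subunits of the 5 complexes of oxidative phosphorylation. They were measured on 40 Affymetrix arrays of LNCaP, a human prostate cancer line grown from a lymph node metastasis that depends on androgen. A gene was a member if its symbol in the platform annotation began with NDUFA, NDUFB, NDUFC, NDUFS, NDUFV, SDHA to SDHD, UQCR, COX4 to COX8 or ATP5. Of 94 such symbols with a probe set of their own, 12 assembly factors, 2 pseudogenes and 3 antisense, divergent or read-through genes were left out, which gave 77 members of 19775 genes in all. Of these 77, 72 passed a filter on dim probe sets that 11853 genes passed. They were 33 genes of complex I, 3 of complex II, 6 of complex III, 12 of complex IV and 18 of complex V. NDUFC2, NDUFS5, NDUFS8, UQCRH and UQCRHL had only probe sets shared with other genes and were not analysed here.

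The study compared 7 clones resistant to MDV3100 (clones 1, 9, 10, 14, 15, 19 and 24) with 3 control lines labelled sensitive to it (control 1 is the line with the title D+E-, control 2 is D+R- and control 3 is M+R-). MDV3100, also called enzalutamide, is an antagonist of the androgen receptor. Each line spent 3 days in RPMI-1640 with fetal calf serum before a 24 h exposure to 10 µM MDV3100 or to 0.1% DMSO, its solvent, and has 2 arrays per treatment, numbered replicate 1 and replicate 2. There were thus 14 arrays of resistant clones in MDV3100, 6 of control lines in MDV3100, 14 of resistant clones in DMSO and 6 of control lines in DMSO. All groups are LNCaP cells, each clone is a single derived line, and the labels do not explain the titles of the control lines. No label says whether replicates came from separate cultures. The p-values therefore measure only how far these lines spread, which may be technical in part. Array signal is scaled to a common level, so that fewer cells and less RNA per cell cannot be told apart.

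Complex I takes electrons from NADH and complex II from succinate, and both pass them through ubiquinone to complex III. Complex III hands them to cytochrome c, complex IV uses them to reduce oxygen, and complex V, the ATP synthase, makes ATP from the proton gradient that complexes I, III and IV build. Complexes I, III, IV and V also contain subunits encoded in mitochondrial DNA, which are not among these members, while complex II is encoded in the nucleus alone. Normal prostate secretory cells export citrate instead of oxidising it, and prostate cancer cells are known to regain citrate oxidation.

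The arrays of replicate 1 and replicate 2 differed from each other under the same label, so each comparison was made within 1 replicate set, with the line as the unit. Differences below are on the log2(signal + 16) scale with the standard error, and a gene was called at an adjusted p under 0.05 by limma with Benjamini-Hochberg adjustment over all 11853 genes. The share of all genes called is given beside the first count of each comparison. The cells had the markers of the labelled line. All 7 prostate luminal markers with a probe set of their own passed the filter, at median signals from 634 to 2797, whereas 0 of 3 leukocyte and 0 of 2 basal markers did. Of 3 fibroblast markers 2 passed, COL1A1 among them, of 3 endothelial markers 1 passed and of 3 neuroendocrine markers 1 passed, and the part of such cells in the results was not tested. The ratio of the actin 3′ to 5′ probe sets, a measure of RNA integrity and labelling, averaged 4.37 ± 0.53 in clones in MDV3100 (SD, n = 7), 5.12 ± 1.28 in control lines in MDV3100 (SD, n = 3), 4.06 ± 0.46 in clones in DMSO and 3.79 ± 0.53 in control lines in DMSO in replicate 1, with the highest value, 6.59, in control 2 in MDV3100. In replicate 2 the means of the same groups lay between 3.02 and 3.57.

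Most members were bright in every culture. The mean DMSO signal ran from 199.98 for NDUFS7, an iron-sulfur core subunit, to 3696 for NDUFB4 in complex I, and from 939 for SDHD to 2430 for SDHC, the membrane anchors of complex II. It ran from 348 for UQCRC1, a large core protein, to 2608 for UQCRB in complex III, from 212 for COX7B2 to 3714 for COX7C in complex IV, and from 31.8 for ATP5MF to 3846 for ATP5F1E in complex V. Signals of different probe sets do not measure relative abundance, and these values only place each gene above or near the background of its array. The 5 members below the filter were isoforms of complex IV known from muscle, lung or testis, namely COX4I2, COX6A2, COX6B2, COX7A1 and COX8C, with mean DMSO signals between 1.27 and 9.22. COX7B2, an isoform best known from testis, passed the filter.

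In replicate 1, part of the respiratory chain genes had higher levels in the clones. In MDV3100, 23 of 72 members rose and 0 fell, where 9.01% of all genes were called, 5.53% higher and 3.48% lower. The median difference of the members was 0.42, against 0.05 over all genes tested. Of the 23, 16 belonged to complex I, 2 to complex III, 1 to complex IV and 4 to complex V. In 30 members every clone lay above every control line and in 0 below, against 7.38% and 3.88% of all genes.

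NDUFC1, an accessory subunit of the membrane arm of complex I, had signals of 1785 to 2634 in the 7 clones in MDV3100, with a median of 2040, and of 941, 593 and 1178 in control 1, control 2 and control 3. No clone overlapped a control line. The difference was 1.23 ± 0.19, a fold of 2.35 (limma adjusted p = 0.00609). NDUFA7, an accessory subunit of the matrix arm, had 967 to 1468 in the clones, median 1077, and 555, 478 and 690 in the control lines, a difference of 1.00 ± 0.16 (limma adjusted p = 0.00703). These groups were also apart. NDUFA3 had 475 to 751 in the clones, median 560, and 289, 253 and 328 in the control lines, a difference of 0.98 ± 0.15 (limma adjusted p = 0.00586). NDUFA1, an X-linked accessory subunit needed for assembly of the complex in human cells, had 1729 to 2439 in the clones, median 2220, and 1197, 1099 and 1303 in the control lines, a difference of 0.87 ± 0.13 (limma adjusted p = 0.00586). Clone 1 had the lowest of the clone values for NDUFC1, NDUFA7, NDUFA3 and NDUFA1, and it was still above every control line.

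The promoters of members are shown for the 4 genes chosen by size of difference and by the presence of a motif. RefSeq windows of build GRCh38.p14, from 250 bases before to 50 bases after the start, were found for 66 of the 77 members, 9 of them with several windows, of which the first was used. The 250 bases before the start are given, 5′ to 3′ on the gene's strand, in lower case with words of the NRF1, ETS or YY1 motif in capitals. NDUFC1 (chr4:139302552-139302801, minus strand) and COX7A2 (chr6:75250299-75250548, minus strand) each had the largest called difference of clones over control lines within 1 comparison, NDUFC1 in MDV3100 of replicate 1 and COX7A2 in DMSO of replicate 2. NDUFA3 (chr19:54102605-54102854, plus strand) and NDUFA11 (chr19:5903791-5904040, minus strand) had the largest with an NRF1 or ETS word before the start in the same comparisons, NDUFA3 in the first and NDUFA11 in the second.
NDUFC1: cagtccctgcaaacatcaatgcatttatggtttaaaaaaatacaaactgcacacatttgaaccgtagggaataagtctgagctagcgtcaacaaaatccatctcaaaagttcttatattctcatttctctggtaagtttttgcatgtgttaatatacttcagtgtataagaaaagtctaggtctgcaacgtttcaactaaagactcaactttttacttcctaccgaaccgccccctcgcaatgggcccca
NDUFA3: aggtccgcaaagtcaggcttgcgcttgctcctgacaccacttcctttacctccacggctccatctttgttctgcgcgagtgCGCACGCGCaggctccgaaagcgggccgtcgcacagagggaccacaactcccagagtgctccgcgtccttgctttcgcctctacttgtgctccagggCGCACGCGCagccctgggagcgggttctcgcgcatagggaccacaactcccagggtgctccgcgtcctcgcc
COX7A2: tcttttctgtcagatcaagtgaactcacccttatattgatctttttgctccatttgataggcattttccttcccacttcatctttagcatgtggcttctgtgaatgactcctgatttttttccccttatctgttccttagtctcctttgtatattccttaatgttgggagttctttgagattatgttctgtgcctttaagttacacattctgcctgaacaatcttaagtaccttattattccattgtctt
NDUFA11: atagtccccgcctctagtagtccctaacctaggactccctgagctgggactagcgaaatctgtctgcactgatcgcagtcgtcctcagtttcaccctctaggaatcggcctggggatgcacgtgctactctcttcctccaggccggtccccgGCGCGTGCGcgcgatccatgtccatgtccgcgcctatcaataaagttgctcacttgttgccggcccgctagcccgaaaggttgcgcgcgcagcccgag

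NRF1 and the ETS family factor GABP are known activators of nuclear respiratory genes, and YY1 is another known one. The words searched on both strands were GCGCNTGCG for NRF1, CCGGAAG for ETS factors and AAGATGGCG for YY1. The NRF1 word was present in 33.3% of the 66 member windows, against 8.05% of 27305 windows of all symbols. The ETS word was in 27.3% against 10.7%, and the YY1 word in 10.6% against 1.85%. Among the 21 windows of members higher in the clones in MDV3100 of replicate 1, 9 held the NRF1 word, 3 the ETS word and 3 the YY1 word. Of the 7 windows of members higher in the clones of replicate 2, 2 held the NRF1 word, 2 the ETS word and 0 the YY1 word. The NRF1 word was made 1 letter shorter after its first results were seen. With 1 more C at its end it was in 24.2% of member windows and 6.28% of all windows, and in 6 of the 21 and 2 of the 7. NDUFA3 has this word from positions -169 and -72 relative to the start, and NDUFA11 from position -98. NDUFC1 and COX7A2 held none of the 3 words in this window. A match describes letters and not a bound site.

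Outside complex I, the largest difference in MDV3100 was that of UQCR10, a small subunit of complex III. Its signals were 1378 to 2837 in the clones, median 1891, and 970, 810 and 1270 in the control lines, a difference of 0.86 ± 0.22 (limma adjusted p = 0.036). Its other probe set that passed the filter showed a difference of -0.01, so that the call rests on the brightest probe set. Over the 23 called members, 11 of 12 other probe sets that passed the filter had the sign of the brightest, UQCR10 being the exception. ATP5ME, subunit e of the ATP synthase membrane part, had 2131 to 3394 in the clones, median 2329, and 1314, 1421 and 1535 in the control lines, a difference of 0.83 ± 0.15 (limma adjusted p = 0.0124). ATP5MC2, which encodes the c subunit of the rotor ring, was 0.76 ± 0.16 higher, and COX6C, a small subunit of complex IV, was 0.65 ± 0.15 higher (limma adjusted p = 0.0205 and 0.0254). The isogenes ATP5MC1 and ATP5MC3, which encode the same mature c subunit, differed by 0.44 each and did not pass the test.

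In DMSO, 9 members rose in the clones of replicate 1 and 0 fell, where 6.12% of all genes were called, 3.64% higher and 2.47% lower. In 12 members every clone lay above every control line and in 1 below, against 6.61% and 5.46% of all genes. The members' median difference was 0.28, against 0.03 over all genes. The 9 were NDUFC1, NDUFA7, NDUFV3, NDUFB10, NDUFB11, NDUFB3, NDUFA12 and NDUFA8 of complex I and UQCR10 of complex III, and all but NDUFB3 were also called in MDV3100. NDUFC1 had 1257 to 2143 in the clones in DMSO, median 2043, and 1126, 881 and 1103 in the control lines, a difference of 0.88 ± 0.16 (limma adjusted p = 0.0165). The lowest clone was clone 1, close to the control lines, while the other 6 clones had 1841 or more. NDUFA7 had 635 to 1264 in the clones, median 1127, and 622, 594 and 665 in the control lines, a difference of 0.76 ± 0.18 (limma adjusted p = 0.0373), and clone 1 lay within the range of the control lines. NDUFV3, a small subunit of the NADH-binding part, was 0.65 ± 0.11 higher, with 877 to 1210 in the clones and 740, 631 and 686 in the control lines.

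The differences by complex are seen in the mean log2 level over the members of a complex on each array, which has no test here. For complex I this mean was 10.35 ± 0.11 in clones and 9.86 ± 0.11 in control lines in MDV3100 of replicate 1, and 10.27 ± 0.17 in clones and 9.91 ± 0.05 in control lines in DMSO (SD, n = 7 and n = 3). In DMSO, clone 1 stood at 9.90, among the control lines at 9.87 to 9.98, and the other clones at 10.28 to 10.40. Complex III had the same order, with a difference of 0.43 in MDV3100 and 0.27 in DMSO, and complex V differed by 0.44 and 0.23. The mean of complex II, with 3 members, differed least, by 0.13 in MDV3100 and 0.07 in DMSO. Its members had opposite signs, with SDHA and SDHC higher and SDHD lower in the clones. In MDV3100 their differences ran from -0.39 to 0.40, with a median of 0.39, and in DMSO from -0.12 to 0.18, with a median of 0.15. Together the members that pass the filter made up 2.17% ± 0.16 of the summed signal in clones and 1.70% ± 0.11 in control lines in MDV3100, and 2.05% ± 0.16 in clones and 1.73% ± 0.04 in control lines in DMSO.

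**Figure D1:**
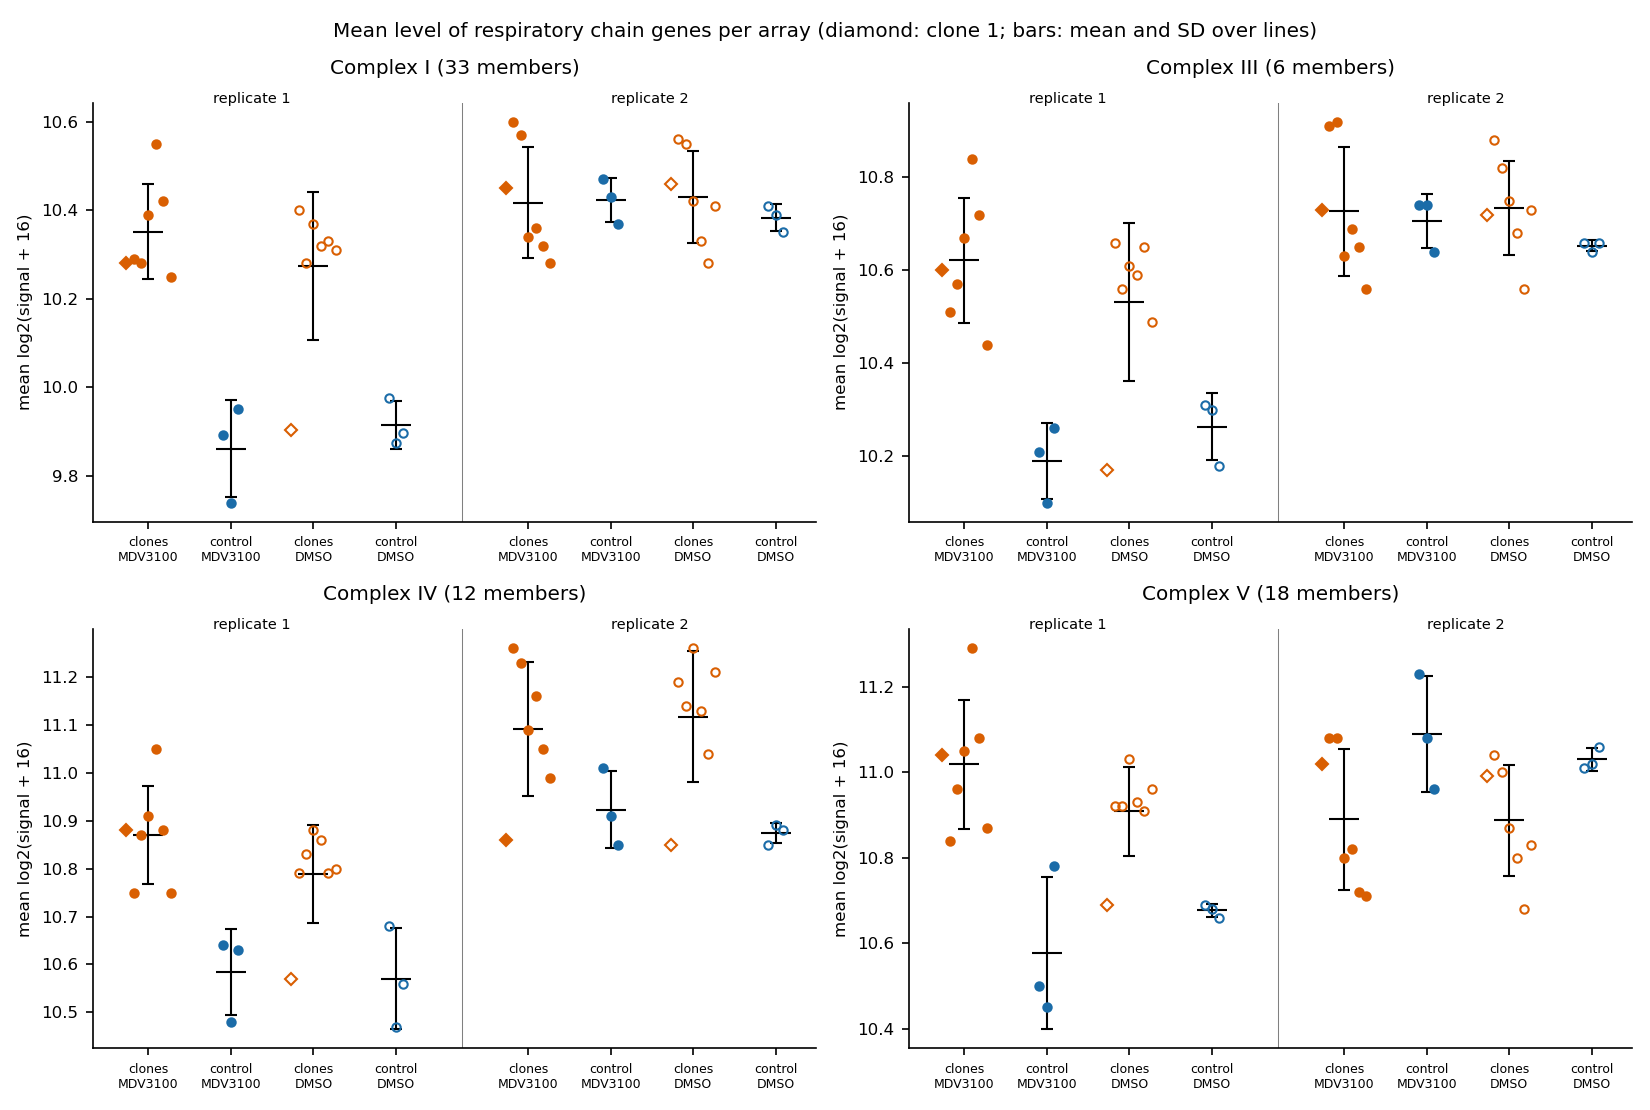
Mean log2(signal + 16) over the members of complexes I, III, IV and V on each array (points), with the mean and SD over lines (bars); clones are orange, control lines blue, MDV3100 filled and DMSO open. In replicate 1 the clones lie above the control lines in every panel except for clone 1 (diamond) in DMSO, at 9.90 in complex I, and in replicate 2 the groups overlap except in part for complex IV, where COX7A2 and COX7B2 carry the difference.

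The count of members called in replicate 1 depended on single lines, as did the share of all genes called where it is given. Counts without that share are not a result about the members alone. In MDV3100 it was 6 without control 1, 3 without control 2 and 40 without control 3, of which 38 were higher and 2 lower, while all genes called came to 1.45%, 0.751% and 25.3%. In the same fit it was 15 without clone 10, 11 without clone 14 and 15 without clone 15. In DMSO it was 1 without control 1, 0 without control 2, 0 without control 3 and 36, all higher, without clone 1, when 12.3% of all genes were called. Without clone 9, 10, 14, 15 or 24 it was between 2 and 5. The median difference of the members stayed between 0.37 and 0.50 in MDV3100 without each control line in turn, and between 0.26 and 0.33 in DMSO without each control line or without clone 1.

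The complex I genes that passed the test in replicate 1 were accessory subunits. The nuclear core subunits carry the flavin and the iron-sulfur clusters and are shared with bacteria, and 5 were measured here (NDUFS1, NDUFS3, NDUFS7, NDUFV1 and NDUFV2). In MDV3100, 0 of these 5 were called, with differences from 0.17 to 0.47, and 16 of the 28 other subunits were called, with a median difference of 0.58. In DMSO it was 0 of 5 and 8 of 28. In complex III, the large core proteins UQCRC1 and UQCRC2 differed by 0.30 and 0.18 in MDV3100 and by -0.04 and -0.02 in DMSO and did not pass the test, and the 4 small subunits differed by 0.31 to 0.86 in MDV3100. In complex V, the alpha, beta and gamma subunits of the catalytic head, ATP5F1A, ATP5F1B and ATP5F1C, differed by 0.13, 0.29 and 0.41 in MDV3100 and did not pass either. ATP5F1D, at 0.59, did not pass, while ATP5F1E, at 0.50, was called. Of the 5 subunits ATP5F1A to ATP5F1E 1 was thus called, and of the 13 others 3, with median differences of 0.41 and 0.44. The division seen in complex I was therefore not seen in complex V. This division of the members was chosen after their values were seen and has no test.

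In replicate 2 most calls were other ones. UQCRQ was the only member called higher in the clones in MDV3100 of both sets. NDUFA3 and NDUFS6 were called in MDV3100 of both sets with opposite signs. In MDV3100, 6 of 72 members rose and 2 fell, where 19.6% of all genes were called, 7.20% higher and 12.4% lower. In DMSO 7 rose and 1 fell, where 10.3% of all genes were called, 3.92% higher and 6.38% lower. Every clone lay above every control line in 7 members and below in 2 in MDV3100, against 5.38% and 9.55% of all genes. In DMSO it was 10 above and 4 below, against 4.84% and 8.28%. As 11.1% of the members were called in each treatment, the share in both directions together was below or close to that of all genes. By direction, the members had fewer falls than all genes in both treatments. In DMSO they had more rises, 7 of 72 against 3.92%. These shares were not tested against each other. The median difference of the members was -0.10 in MDV3100 and -0.02 in DMSO, against -0.07 and -0.05 over all genes. COX7A2, NDUFB6, NDUFB1, NDUFB8 and UQCRQ rose in both treatments, NDUFB5 rose in MDV3100, and NDUFA11 and UQCR11 rose in DMSO. NDUFS6 fell in both treatments and NDUFA3 fell in MDV3100.

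COX7A2, the widely expressed isoform of a small complex IV subunit, had 1278 to 2277 in the clones in MDV3100 of replicate 2, median 2072, and 889, 1023 and 1181 in the control lines, a difference of 0.95 ± 0.18 (limma adjusted p = 0.015). In DMSO it had 1498 to 2329 in the clones, median 1987, and 1047, 1091 and 856 in the control lines, a difference of 0.98 ± 0.14 (limma adjusted p = 0.0114). The groups did not overlap in either treatment, and clone 1 was the lowest clone in both. In replicate 1 the same gene had 922 to 1210 in the clones and 1185, 972 and 742 in the control lines in MDV3100, which overlap. NDUFB6, an accessory subunit of the membrane arm, had 551 to 1074 in the clones, median 983, and 448, 477 and 568 in the control lines in MDV3100 of replicate 2, with a difference of 0.79 ± 0.21 (limma adjusted p = 0.0294). Clones 14, 15, 19 and 24 had 983 to 1074 there, clones 9 and 10 had 735 and 750, and clone 1 had 551, within the range of the control lines.

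NDUFB8, whose protein is a common marker of assembled complex I, was 0.52 ± 0.14 higher in MDV3100 and 0.57 ± 0.15 higher in DMSO, and NDUFB1 was 0.59 ± 0.15 and 0.55 ± 0.14 higher. UQCRQ, a small subunit of complex III, was 0.38 ± 0.11 higher in MDV3100 and 0.40 ± 0.10 higher in DMSO. NDUFS6, a zinc-binding accessory subunit, had 1641 to 3126 in the clones, median 2051, and 3885, 3129 and 2888 in the control lines in MDV3100. It fell by 0.60 ± 0.19 there and by 0.50 ± 0.15 in DMSO (limma adjusted p = 0.0479 and 0.04999), whereas it rose by 0.66 ± 0.16 in MDV3100 of replicate 1. NDUFA3 fell by 0.60 ± 0.18 in MDV3100 of replicate 2 (limma adjusted p = 0.0388), with 279 to 511 in the clones and 609, 536 and 489 in the control lines, and had risen in replicate 1.

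Single lines also moved the counts of replicate 2, and the share of all genes called where it is given. Here too, counts without that share do not describe the members alone. In MDV3100 the 8 calls became 1 without control 1, 0 without control 2, 0 without control 3 and 22 without clone 1, when 39.96% of all genes were called, and 1 without each of clones 14, 15, 19 and 24. In DMSO they became 4 without control 1, 0 without control 2, 0 without control 3, 19 without clone 1, when 32.7% of all genes were called, and 1 to 4 without each other clone. COX7A2 remained called in MDV3100 without each line except control 2 and control 3.

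**Figure D2:**
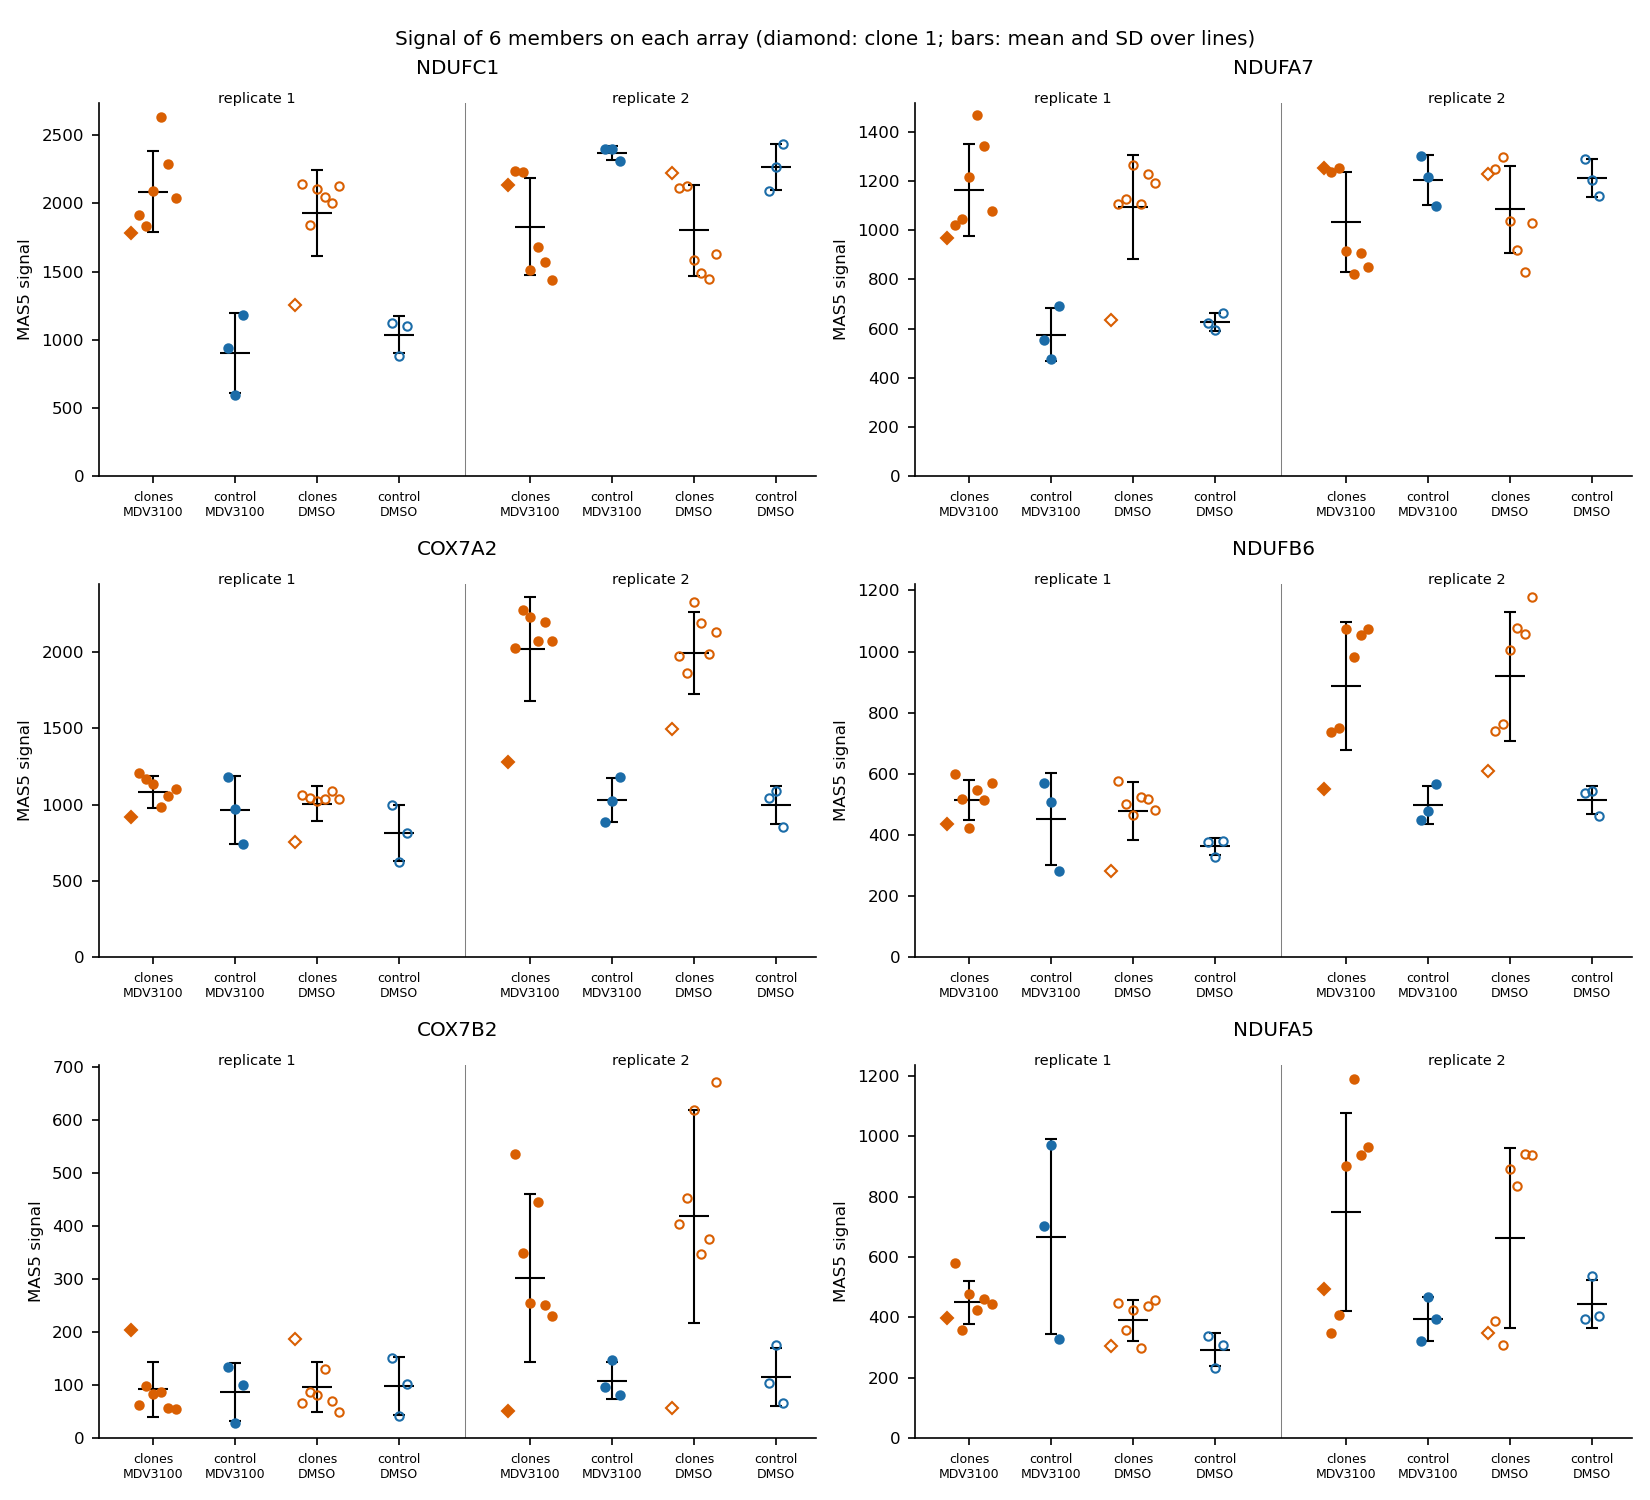
MAS5 signal of NDUFC1, NDUFA7, COX7A2, NDUFB6, COX7B2 and NDUFA5 on each array (points; linear axis from 0), with the mean and SD over lines (bars); clones are orange, control lines blue, MDV3100 filled and DMSO open. NDUFC1 and NDUFA7 are higher in clones in replicate 1, and COX7A2 and NDUFB6 in replicate 2, with clone 1 (diamond) near the control lines for several genes.

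The disagreement of the replicate sets was tested directly, as the difference between replicate 2 and replicate 1 in the gap of clones over control lines, a comparison chosen after the data were seen. In MDV3100, 26 members were called, 24 with a lower value of clones minus control lines in replicate 2 and 2 with a higher one. Of all genes, 23.7% were called, 14.9% lower and 8.84% higher. In DMSO it was 15 members, 14 lower and 1 higher, where 18.1% of all genes were called, 11.4% lower and 6.74% higher. A lower value includes differences that turned negative, and is not always a smaller gap. NDUFC1 changed by -1.63 ± 0.29 in MDV3100 and by -1.22 ± 0.27 in DMSO (limma adjusted p = 0.00884 and 0.0149). NDUFA3 changed by -1.58 ± 0.28 in MDV3100, and COX7A2 changed the other way, by 0.77 ± 0.23 in MDV3100 and 0.67 ± 0.17 in DMSO. ATP5F1D, the delta subunit of the ATP synthase head, was called in no comparison of clones with control lines and changed by -1.43 ± 0.40 in MDV3100. It was 0.59 higher in clones of replicate 1 and 0.84 lower in those of replicate 2.

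A fit of both sets together, with the replicate number as a block, called fewer members in MDV3100 than replicate 1 did, with 9 higher in the clones and 0 lower, when 3.72% of all genes were called. They were NDUFA2, NDUFA6, NDUFA11, NDUFB1 and NDUFB2 of complex I, UQCRQ and UQCR11 of complex III, and COX5B and COX7A2 of complex IV. In DMSO it called 7, all higher, when 1.80% of all genes were called, namely NDUFB1, NDUFB2, NDUFB3, NDUFB6, NDUFB8, UQCRQ and COX7A2. UQCRQ was 0.45 ± 0.08 higher in MDV3100 and 0.44 ± 0.09 higher in DMSO (limma adjusted p = 0.00953 and 0.023). NDUFC1, at 0.42 ± 0.22 and 0.26 ± 0.18, and NDUFA7, at 0.38 ± 0.18 and 0.29 ± 0.16, did not pass (limma adjusted p = 0.284, 0.394, 0.225 and 0.28). This fit counts both arrays of a line as separate samples. On the mean of both arrays of a line, 0 members were called in DMSO and 14, all higher, in MDV3100, when 0.118% and 8.96% of all genes were called.

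**Figure D3:**
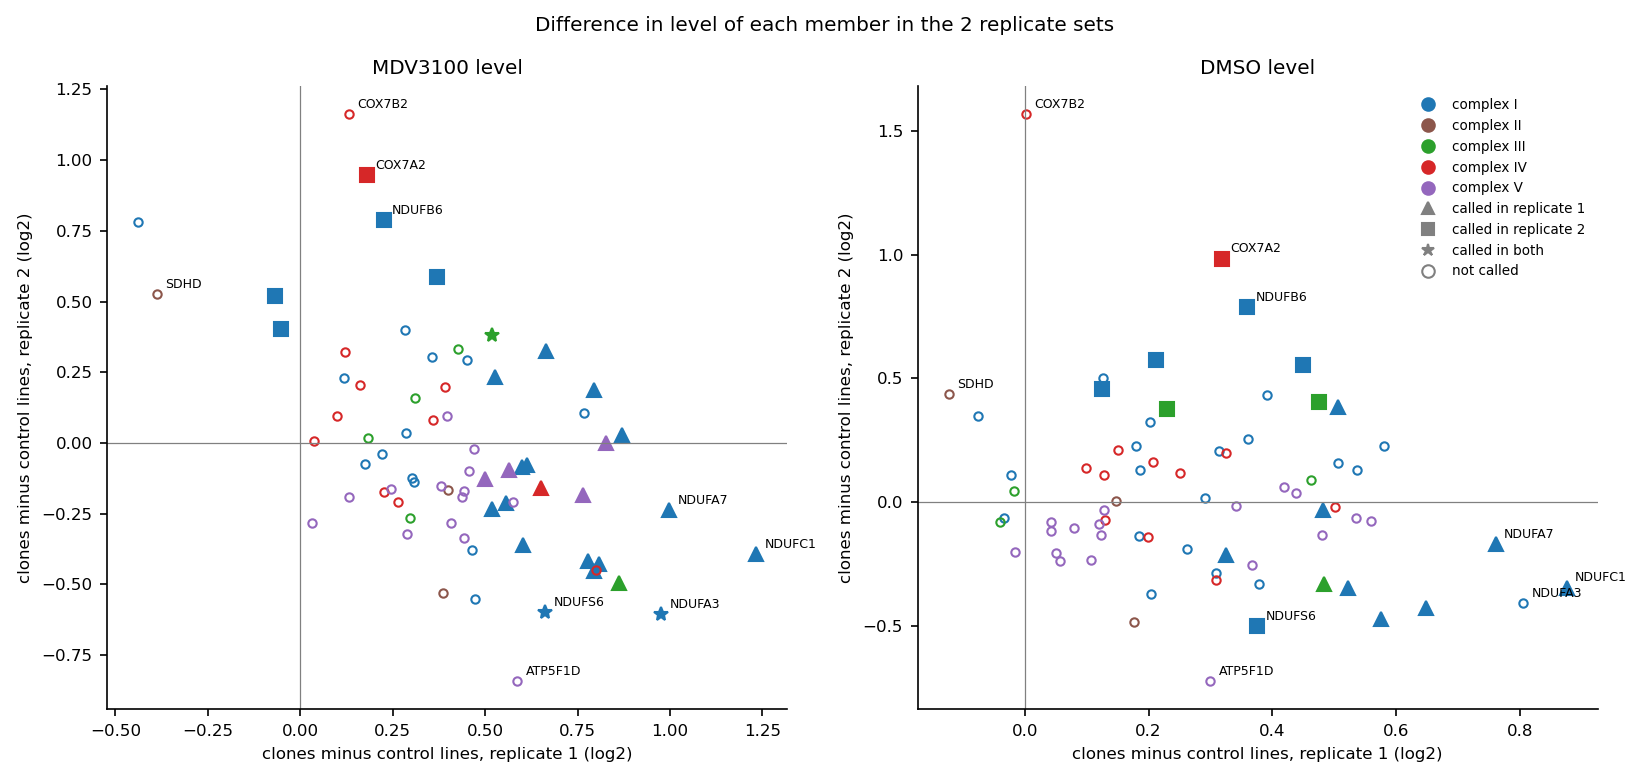
Difference between clones and control lines (log2) of each of the 72 members in replicate 1 (horizontal axis) and replicate 2 (vertical axis), in MDV3100 (left) and DMSO (right), coloured by complex; filled marks passed the test. Most members lie right of 0 in replicate 1 and on either side of 0 in replicate 2, where NDUFC1 is below 0 and COX7A2 above.

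In replicate 2 the mean levels of complexes IV and V differed between clones and control lines in opposite directions, without a test. The mean level of complex IV was 11.09 ± 0.14 in clones and 10.92 ± 0.08 in control lines in MDV3100, and 11.12 ± 0.14 in clones and 10.87 ± 0.02 in control lines in DMSO (SD, n = 7 and n = 3). Clone 1, at 10.86 and 10.85, was within the range of the control lines or at its edge, and the other clones in DMSO were at 11.04 or more. Of the 12 members, COX7A2 and COX7B2 carried this difference. COX7B2 was 1.16 higher in MDV3100 and 1.57 higher in DMSO and did not pass the test (limma adjusted p = 0.116 and 0.0832). Without COX7A2 and COX7B2, a choice made after the values were seen, the mean difference of the other 10 was -0.008 in MDV3100 and 0.04 in DMSO, against 0.17 and 0.24 with them. The mean level of complex V was 10.89 ± 0.16 in clones and 11.09 ± 0.14 in control lines in MDV3100, and 10.89 ± 0.13 in clones and 11.03 ± 0.03 in control lines in DMSO, with overlap. For complex V, 17 of 18 members had a negative difference in MDV3100 and 16 of 18 in DMSO, and 0 were called by limma (2 and 1 at an unadjusted p under 0.05), while in replicate 1 all 18 had a positive difference in MDV3100. Complex I, at 10.42 in clones and 10.42 in control lines in MDV3100, did not differ by more than the spread of the clones.

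Complex II, which also belongs to the citrate cycle, had no member called between clones and control lines within a set. SDHD, a membrane anchor, had 582 to 1503 in the clones in MDV3100 of replicate 2, median 1337, and 690, 815 and 832 in the control lines, a difference of 0.53 ± 0.26 (limma adjusted p = 0.155). Clones 14, 15, 19 and 24 had 1337 or more and clone 1 had 582, below every control line. SDHA, the flavoprotein that oxidises succinate, had 734 to 1377 in the clones and 1545, 1473 and 1317 in the control lines in the same arrays, a difference of -0.53 ± 0.19 (limma adjusted p = 0.0707). The gap of clones over control lines for SDHA changed between the sets, by -0.92 in MDV3100 and by -0.66 in DMSO (replicate 2 minus replicate 1, limma adjusted p = 0.0294 and 0.0371). SDHC, the other anchor, differed by -0.17 there. In replicate 1 the differences in MDV3100 were -0.39 for SDHD, 0.39 for SDHA and 0.40 for SDHC.

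COX4I1, COX5A, COX5B, COX6A1, COX7A2L and COX8A differed between clones and control lines by -0.21 to 0.39 over both treatments and both replicate sets, and none passed the test within a set. COX7A2L is known for its role in joining complexes III and IV. ATP5IF1, the inhibitory factor of the ATP synthase, differed by 0.03 in MDV3100 and 0.04 in DMSO in replicate 1, and by -0.28 and -0.08 in replicate 2.

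The 24 h response to MDV3100 was small. In the clones of replicate 1, 0 members were called by limma, where 1.40% of all genes were called, and 3 members had an unadjusted p under 0.05. The median response of the members was 0.09, against 0.01 over all genes, and 65 of 72 were positive. In the clones of replicate 2, 0 members were called, where 0.0169% of all genes were called, with 1 at an unadjusted p under 0.05, a median of -0.004 and 31 of 72 positive. Read as a mean over the 72 members, the response of the clones of replicate 1 ran from -0.09 in clone 9 to 0.36 in clone 1, with 0.25 in clone 15 and -0.06 in clone 24. In clone 1, 68 of 72 members were higher in MDV3100 than in DMSO, and its DMSO level was the lowest of the clones, and in clone 15 it was 62. In replicate 2 the means were 0.04 in clone 9, 0.003 in clone 1, 0.03 in clone 15 and -0.14 in clone 24, and those of clone 1 and clone 15 were near 0.

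In the control lines of replicate 1, 1 member was called, where 7.85% of all genes were called and 3.75% were called higher. It was NDUFA5, an accessory subunit of the matrix arm, which rose by 1.03 ± 0.24, a fold of 2.04 (limma adjusted p = 0.0213). Its signals in MDV3100 and DMSO were 702 and 338 in control 1, 970 and 233 in control 2, and 329 and 309 in control 3, so that control 3 hardly moved. In replicate 2 they were 322 and 394, 467 and 536, and 395 and 405, each lower in MDV3100. In a fit of the responses of both sets together its response was 0.43 and did not pass. That fit had no term for the replicate number and counted both responses of a line as separate samples. Without control 1 or without control 2 the count was 0, and without control 3 it was 12, of which 5 were higher and 7 lower, when 22.7% of all genes were called. The mean response over all members was -0.10 and -0.14 in control 1 and control 2 and 0.08 in control 3. In these control lines the actin ratio was also higher in MDV3100 than in DMSO, as given above, and its part in the result was not tested. In replicate 2, 0 members of the control lines were called (0.0506% of all genes; 0 members at an unadjusted p under 0.05).

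**Figure D4:**
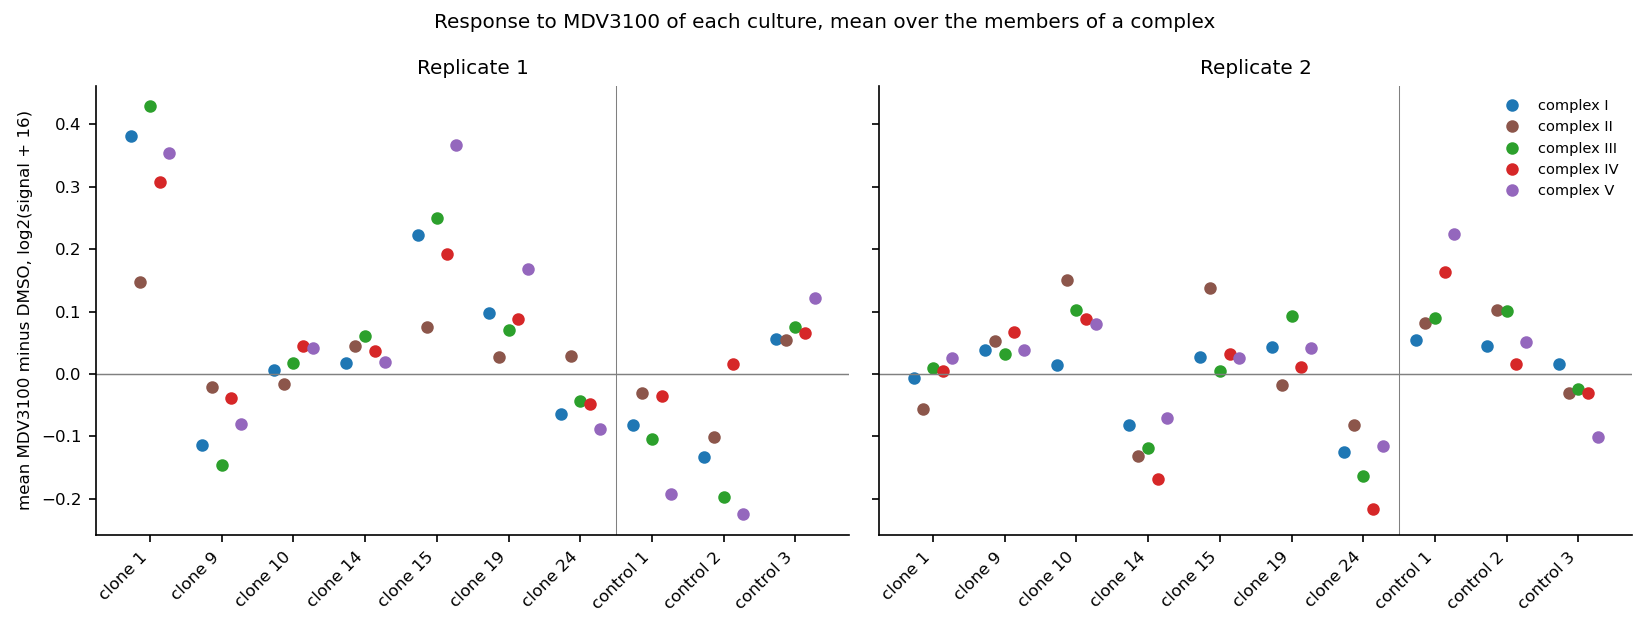
MDV3100 minus DMSO (log2) of each line in replicate 1 (left) and replicate 2 (right), as the mean over the members of each complex (colours). Clone 1 and clone 15 lie above 0 in replicate 1, control 1 and control 2 lie mostly below it, and the 5 complexes have means of like sign in 7 of 10 lines of each set.

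In 7 of 10 lines of each replicate set, the mean responses of the 5 complexes had 1 sign. In clone 1 of replicate 1, complexes I, III, IV and V had a mean of 0.38, 0.43, 0.31 and 0.36 and complex II of 0.15, and in control 2 complexes I, III and V stood at -0.13, -0.20 and -0.23 with complex IV at 0.02. The response of clones minus that of control lines had a member median of 0.18 in replicate 1, against 0.02 over all genes, and of -0.05 in replicate 2, against -0.02. No member was called by limma in either set (0.00844% and 0.00% of all genes), with 7 and 1 at an unadjusted p under 0.05. Without control 3 the count in replicate 1 was 8, of which 6 were higher and 2 lower, when 14.4% of all genes were called.

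Levels in DMSO also differed between the replicate sets. Over the 10 lines, 28 members were higher in replicate 2 and 0 were lower, where 29.6% of all genes were called, 11.04% higher and 18.6% lower. In 16 members all 10 lines were higher in replicate 2, against 4.02% of all genes. The median difference of the members was 0.19, against -0.05 over all genes. Of the 28, 17 belonged to complex I, 3 to complex III, 6 to complex IV and 2 to complex V. The actin ratio averaged 3.21 over the arrays of replicate 2 and 4.29 over those of replicate 1, and its part in the difference was not tested.

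COX7B2 had the largest difference, 1.34 ± 0.44 (limma adjusted p = 0.0388). Its signals in DMSO of replicate 2 were 58 in clone 1, 348 to 672 in the other 6 clones and 104, 175 and 67 in the control lines, and in replicate 1 they were 50 to 187 in the clones and 152, 42 and 103 in the control lines. All 6 of those clones and control 2 were higher in replicate 2, and clone 1, control 1 and control 3 were lower. The difference did not pass the test without control 2 or without any 1 of those 6 clones. NDUFB6 was 0.79 ± 0.11 higher, COX7A2 0.77 ± 0.12, NDUFB1 0.68 ± 0.08 and NDUFB3 0.66 ± 0.06 (limma adjusted p = 0.00115, 0.00174, 0.000645 and 0.000264). All 7 members higher in DMSO in the clones of replicate 2 were among these 28, and 2 of the 9 higher in the clones of replicate 1 were, NDUFA12 and NDUFB3. These comparisons share arrays. The mean level over all members in DMSO was 10.65 in replicate 2 and 10.26 in replicate 1 in the control lines, and 10.69 in replicate 2 and 10.55 in replicate 1 in the clones. In the 3 control lines alone 0 members passed the test between the sets, with a median difference of 0.34, and in the 7 clones alone 21 were higher and 5 lower, with a median difference of 0.10. These fits hold unlike numbers of lines and come without the share of all genes called, so their counts cannot be compared.

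**Figure D5:**
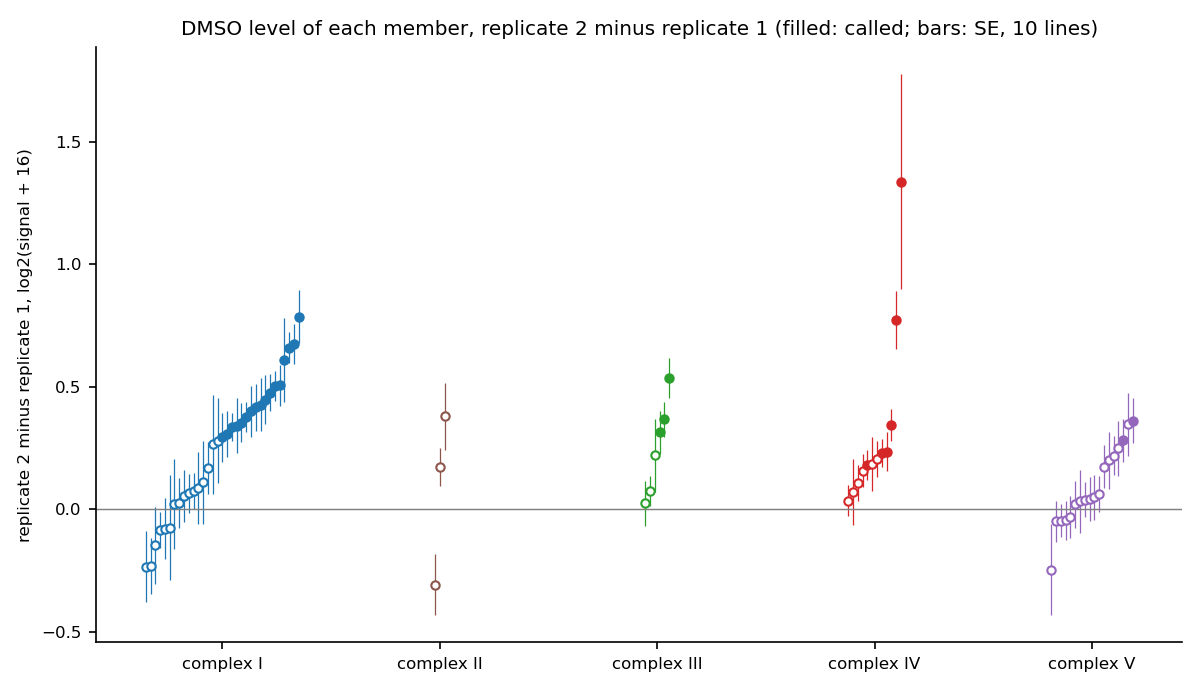
Replicate 2 minus replicate 1 in DMSO (log2) of each member, by complex, with the standard error over 10 lines; filled points passed the test. All filled points lie above 0, from 0.18 for COX5A to 1.34 for COX7B2.

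The levels of the members were more closely correlated in replicate 1 than in replicate 2. Over the 2556 pairs of members the median correlation of log2 levels was 0.62 across the 20 arrays of replicate 1 and 0.31 across the 20 of replicate 2, with extremes of 0.99 and -0.96 in replicate 2. These are descriptions over arrays that share lines and scaling. Against the mean of the other members, 4 members in replicate 1 and 12 in replicate 2 had a negative correlation. SDHD stood at -0.60 and -0.51, and NDUFA5 at -0.10 and -0.72. In DMSO of replicate 2, NDUFA5 had 834 to 942 in clones 14, 15, 19 and 24, 310 to 388 in clones 1, 9 and 10, and 394, 536 and 405 in the control lines. NDUFC1 ran the other way there, with 1448 to 1629 in clones 14, 15, 19 and 24, 2110 to 2219 in clones 1, 9 and 10, and 2092, 2266 and 2433 in the control lines.

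Other genes of the pathway were counted in the same fits. Of all genes, 5.53% were called higher and 3.48% lower in clones in MDV3100 of replicate 1, and 7.20% and 12.4% in MDV3100 of replicate 2. In DMSO it was 3.64% and 2.47% in replicate 1, and 3.92% and 6.38% in replicate 2. In this paragraph, rose and fell refer to the level of clones against control lines, except where control lines under MDV3100 are named. Of 44 assembly factors tested, 3 rose in clones in MDV3100 of replicate 1 (NDUFAF2, NDUFAF3 and SCO1) and 0 fell, and 2 rose in DMSO. In replicate 2, 11 rose and 1 fell in MDV3100, and 10 rose and 1 fell in DMSO. NDUFAF3, which acts early in complex I assembly, rose by 0.91 ± 0.15 in MDV3100 of replicate 1 and fell by 0.77 ± 0.19 in MDV3100 of replicate 2. COA6, a copper-handling factor of complex IV, rose by 0.74 ± 0.17 in MDV3100 and by 0.90 ± 0.16 in DMSO of replicate 2. Of the 14 regulators of mitochondrial gene expression, 1 fell and 0 rose in clones in MDV3100 of replicate 1, and 2 fell and 3 rose in replicate 2. PPARGC1B, a coactivator, was 1.14 ± 0.30 lower in clones in MDV3100 of replicate 1 and rose by 0.73 ± 0.21 in the control lines of that set under MDV3100. Of the 14 citrate cycle genes tested, 2 fell and 0 rose in clones in MDV3100 of replicate 1 and 3 rose and 0 fell in replicate 2. DLAT and SUCLA2 were 0.91 ± 0.20 and 0.73 ± 0.18 lower in clones than in control lines in MDV3100 of replicate 1. Both were also called lower in DMSO of that set. In MDV3100 of replicate 2 they were 0.81 ± 0.19 and 0.69 ± 0.18 higher in the clones. No citrate cycle gene was called in a response to MDV3100. The list for cytochrome c and ubiquinone synthesis had 13 genes, among them CYC1, a complex III subunit outside the member rule. Of these genes, 1 rose in clones in MDV3100 of replicate 1 and 0 in replicate 2. PDSS1 fell by 0.82 ± 0.13 in control lines of replicate 1 under MDV3100 and was 0.74 ± 0.17 higher in the clones in MDV3100 of that set.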

How the data were processed

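RNA of LNCaP lines was hybridised to 40 arrays, and each array was placed in its group by its label. The values the authors deposited are signal intensity, 1 per probe set. According to the submitters' processing notes the software was MAS5, with no version given in the sources used here. The trimmed mean intensity of every array was 150, so no further normalization was applied. The number of arrays limits the precision.

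Values were taken as log2(signal + 16), so that changes of dim genes are understated. Probe sets with a mean at or above the median of all 54675, a signal of 12.1, were kept, and of those with 1 gene in the platform annotation the brightest per gene was used (41097 probe sets had 1 gene, 1801 several and 11777 none). Tests used limma 3.58.1 in R 4.3.3 and tables Python 3.11.15. The 11 comparisons were the MDV3100 response of clones, of control lines and their difference, and the level of clones minus control lines in MDV3100 and in DMSO, each within replicate 1 and within replicate 2, and DMSO levels of replicate 2 minus replicate 1. Fits were tested on simulated data.

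The replicate numbers were used to pair the MDV3100 and DMSO arrays of a line, and responses were taken per line and number. Over 20 pairs, deviations from group means correlated at r = 0.479 to 0.874 across genes. The group means span both sets, so this r also holds the difference between the sets and does not by itself show a pairing by line. Of the 20 DMSO arrays, 16 had the MDV3100 array of their own line and number as the best match in their arm. Arrays of 1 label in the 2 sets correlated at a median r of -0.408 after centring each gene.

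Named members are the called ones, up to 5 rises and 5 falls per comparison, the brightest and dimmest of each complex, those below the filter, and a set of known subunits, of which SDHB, NDUFA4, NDUFA4L2 and UQCRFS1 were not analysed here. Members and lists were chosen with earlier results of these data known. Alternatives were the pseudocount, the filter, quantile normalization, the mean of probe sets and an intensity trend. Others were pooling or blocking the sets, responses without pairing the arrays of a line, and leaving out each line.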

Additional observations from a re-analysis of the deposited data

Results flagged for a closer look

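Among the 78 groups of 7 clones checked for a sample far from the others (Dixon's test), 11 stood out, where chance at 1 in 20 gives 3.9. Clone 1 was the low sample in DMSO of replicate 1 for the mean log2 level of complex I (9.90, the other clones at 10.28 to 10.40), complex III (10.17, others from 10.49), complex IV (10.57, others from 10.79) and complex V (10.69, others from 10.91). On the same array NDUFC1 had a signal of 1256.7, NDUFA7 of 635.2 and NDUFA12 of 1692.3, the lowest of the clones each time. In MDV3100 of replicate 1 clone 1 was low for NDUFA1, at 1728.7, and clone 15 was high for NDUFA8, at 1880 against 1505 to 1656 in the other clones. In MDV3100 of replicate 2 clone 1 was low for COX7A2, at 1278.3 against 2025 or more, and for NDUFB1, at 1461.9 against 1837 or more. The tests share arrays, and so these flags are not independent.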

How the results depend on the processing

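Pooling the sets as the mean of a line gave a single fit for both sets. It called 0 for the response of control lines (1 before, in replicate 1), 0 for the DMSO level and 14 for the MDV3100 level. A fit of both sets together had the replicate block for levels only. It gave 0 for the response of control lines, 9 for the MDV3100 level and 7 for the DMSO level. A fit within replicate 1 that did not pair the arrays of a line also gave 0 for the response of control lines. Without the filter the DMSO level in replicate 1 gave 5, and with an intensity trend it gave 18, while the MDV3100 level in replicate 2 gave 13. Between the sets, 13 members were called from the MDV3100 arrays and 0 from the 3 control lines alone, whose median difference, 0.344, was above the 0.103 of the clones alone. The share of all genes called is not given for these fits, and their counts cannot be compared. Without each line in turn, counts ran from 0 to 12 for the response of control lines in replicate 1, from 0 to 8 for the difference of responses in replicate 1, from 0 to 36 (DMSO) and 3 to 40 (MDV3100) for levels in replicate 1, from 0 to 19 and 0 to 22 in replicate 2, and from 20 to 26 between the sets. Where control 3 was left out, falls outnumbered rises in the response of control lines, 7 to 5. Centring arrays on the median of the tested genes, added after the data were seen, kept every count within 1.5 times. Of 1443 alternatives for single members, 974 kept the call, 464 lost it and 5 turned the sign: NDUFA3 and NDUFS6 in MDV3100 of replicate 2 became 0.186 and 0.0325 in the pooled and the blocked fits (limma adjusted p 0.190 and 0.663 for NDUFA3, 0.873 and 0.946 for NDUFS6), and COX7B between the sets became -0.0416 as the mean of its probe sets. The cause was not tested. The signal of dim probe sets such as that of ATP5MF, near background, limits what could be called.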
